A study of Homo sapiens with 2 samples.

Results

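The SOX family was followed through 10 of its members in the chromatin RNA of SH-SY5Y cells, an established human neuroblastoma line whose cells resemble sympathetic neuroblasts. The members were taken by symbol and made up 10 of the 60554 genes in the files. They were SOX4, SOX11 and SOX12 of the SoxC group, SOX5 and SOX6 of SoxD, SOX8, SOX9 and SOX10 of SoxE, and SOX2 and SOX3 of SoxB. Cells without genetic modification were fractionated, and the RNA that stayed with the chromatin was sequenced from 2 replicates of 1 condition. All values therefore describe unperturbed cells of a single line. The labels do not say if the replicates were independent cultures, so the spread between them may be technical.

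SOX proteins bind DNA through an HMG box, a domain that inserts into the minor groove and bends the helix. SoxB proteins keep neural progenitors undifferentiated, together with POU-domain partners, whereas SoxC proteins act later, in cells that leave the cycle and switch on neuronal genes. SoxE proteins specify neural crest and its Schwann cell, melanocyte and cartilage derivatives, and SoxD proteins lack a known activation domain and modulate the other groups, most clearly in cartilage. In the sympathetic lineage SOX10 marks the crest-derived progenitors and glia, and SOX11 and SOX4 are expressed in neuroblasts.

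The HMG box is the part in which SOX genes resemble each other most, so it is shown for SOX4, the member with the most counts, as the stretch over which read pairs could most easily be confused between members. It spans 237 bases of the GENCODE v44 transcript, 5′ to 3′, at chr6:21594709-21594945 of GRCh38, on the plus strand and within the only exon of the gene.
SOX4: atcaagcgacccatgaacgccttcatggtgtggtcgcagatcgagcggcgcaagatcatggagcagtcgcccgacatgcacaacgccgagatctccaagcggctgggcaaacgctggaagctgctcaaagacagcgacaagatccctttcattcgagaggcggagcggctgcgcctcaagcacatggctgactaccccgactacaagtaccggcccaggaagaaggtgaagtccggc
Over all 45 pairs of members, identity of the bases in this stretch ran from 81.0 to 89.5% within a group and from 54.0 to 73.0% between groups. The longest run shared by any pair of whole Ensembl canonical transcripts was 45 bases, in SOX9 and SOX10, shorter than the 75 bases sequenced per read. Exons of the members outside the canonical transcript were not searched. Molecular identifiers were extracted and reads trimmed before mapping, so the mapped reads were shorter, by a length not stated. The window counts that follow are for untrimmed reads. Of the 75-base windows of each canonical transcript, none was shared with another gene for SOX11, SOX12, SOX5, SOX8, SOX9, SOX10 or SOX3. For SOX4, 96 of 4795 windows (2.00%) were also in an unnamed antisense transcript of the locus, for SOX6 15 windows were also in MIR6073, which lies within it, and for SOX2 15 were also in SOX1, which had no count.

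Levels are given as sense read pairs per 1000000 sense pairs in genes (CPM) and per kb of exon, so that genes of unequal length can be set side by side. Replicate 1 held 4155210 sense counts in genes and replicate 2 held 3425309. A further 79.4 and 80.7% of the uniquely mapped pairs lay in no annotated exon and are in no gene's count. This bears on the order of levels, since SOX4, SOX11, SOX12, SOX2 and SOX3 consist of 1 exon, whose whole primary transcript is counted, while SOX5, SOX6, SOX8, SOX9 and SOX10 have introns whose pairs are left out. Intervals are exact 95% Clopper-Pearson intervals and cover counting error only.

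SoxC genes held nearly all of the signal counted in exons of the 10 members. The 3 genes together reached 208 CPM per kb in replicate 1 and 175 in replicate 2, which was 98.2% ± 0.27 (SD, n = 2) of the summed level of the 10 members. SoxD reached 2.85 ± 0.55, SoxE 0.516 ± 0.309 and SoxB 0.202 ± 0.121 CPM per kb. SoxC exceeded SoxD 64.2-fold (56.1 to 73.9) in replicate 1 and 71.0-fold (59.9 to 84.8) in replicate 2, SoxE 283-fold (161.8 to 548) and 587-fold (229 to 2157), and SoxB 723-fold (247 to 3509) and 1501-fold (269 to 59317.7). SoxD exceeded SoxE 4.41-fold (2.47 to 8.66) and 8.28-fold (3.16 to 30.8). SoxE and SoxB could not be separated at this depth, since the 2.56-fold ratio had intervals of 0.690 to 14.1 and 0.253 to 125.9. Pairs in introns of the SoxD and SoxE genes are in none of these levels, and what they would add to the ratios was not tested. The length used also moved some of these ratios. SoxC over SoxD, 6.08 on the log2 scale, was 5.14 with the length of the longest or the canonical transcript, 4.48 without division by length and 5.08 with SOX13 added to SoxD. SoxD over SoxE, 2.59, was 3.53 with either other length and 4.65 without division by length. No test between groups of genes was made.

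**Figure D1:**
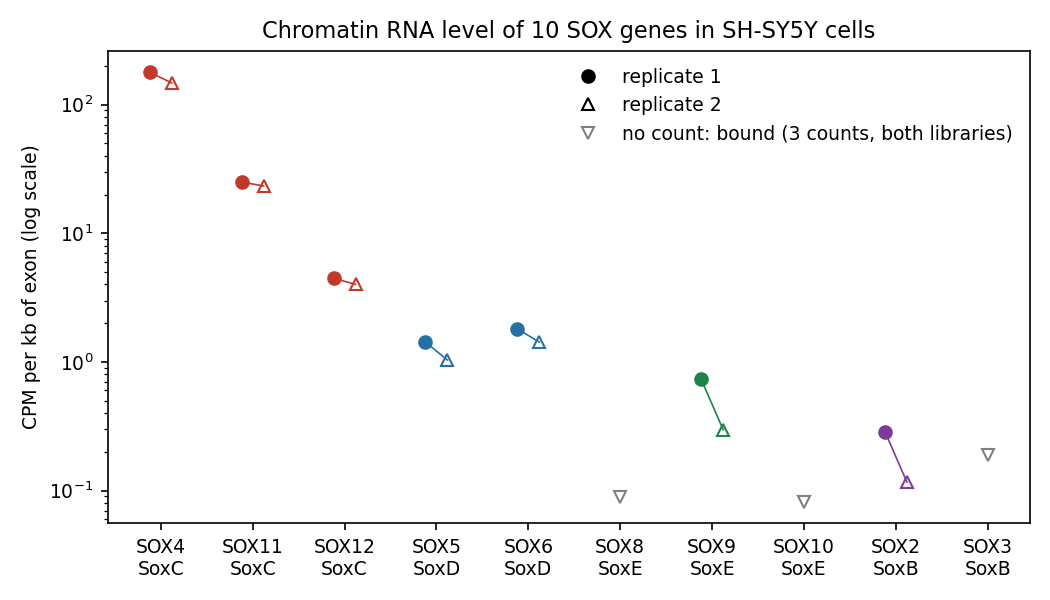
Level of each of the 10 SOX genes in CPM per kb of exon (log scale), with replicate 1 as a filled circle and replicate 2 as an open triangle, coloured by group. Grey triangles give the bound of 3 counts over both libraries for SOX8, SOX10 and SOX3, which had no sense count. The 3 SoxC genes lie above every other member in both libraries.

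A mean of at least 10 sense counts was reached by 5 of the 10 members, against 59.4% of all protein-coding genes. These were all 3 SoxC genes and both SoxD genes, and none of the 3 SoxE or 2 SoxB genes. Among coding genes of 1 exon 19.1% reached this mean, beside 3 of the 5 members of that kind, and among coding genes of several exons 61.4% did, beside 2 of 5. Together the members took 4865 counts (0.117% of the sense counts in genes) and 3380 counts (0.0987%).

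SOX4, a SoxC activator of survival and neuronal genes in precursors, was the highest member. It lies at chr6:21593751-21598619 on the plus strand and had 3609 and 2455 sense counts, or 178 and 147 CPM per kb (163 ± 22.05). This placed it at rank 34 of 19586 protein-coding genes and at rank 9 of the 900 with 1 exon. The rank among all coding genes, like the shares of coding genes given for other members, rests on the union of annotated exons. That union equals the canonical transcript for SOX4 (4.87 kb) but can be longer for genes of several exons, as for HAND2 (3.60 against 2.78 kb). Ranks by other lengths were not computed. SOX4 carried 74.2 and 72.6% of the members' counts and 84.1 and 83.0% of their summed level. SOX4 was also the only 1 of the 5 members with a mean of at least 10 whose replicates differed beyond counting error, by 1.21-fold (1.15 to 1.28) after scaling to library size, against 20.5% of coding genes at that minimum. The 5th to 95th percentile of this ratio over 11637 coding genes was 0.749 to 1.60. All 7 members with a count were higher in replicate 1.

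SOX11, which acts with SOX4 in sympathetic and cortical neurons, was second. It lies at chr2:5692384-5701385 and had 936 and 718 counts, or 25.02 and 23.3 CPM per kb (24.2 ± 1.23). Its level was above 93.6% of all coding genes and 94.7% of those with 1 exon, and it was 7.13-fold (6.63 to 7.67) and 6.32-fold (5.82 to 6.88) below SOX4. SOX4 and SOX11 together made up 93.4 and 93.9% of the members' counts.

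SOX12, the weakest transactivator of the SoxC group, lies at chr20:325552-330224. It had 87 and 64 counts, or 4.48 and 3.998 CPM per kb (4.24 ± 0.34), which was 5.59-fold (4.48 to 7.04) and 5.82-fold (4.51 to 7.64) below SOX11. The level of SOX12 stood above 62.0% of coding genes. Leaving SOX4 out, the remaining SoxC pair still exceeded SoxD by 3.33 ± 0.20 on the log2 scale, compared with 6.08 ± 0.10 with SOX4.

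The SoxD genes were low but measurable. SOX6 spans 773 kb at chr11:15966449-16739591 on the minus strand and had 151 and 98 counts, or 1.81 and 1.42 CPM per kb (1.62 ± 0.27). SOX5 spans 1033 kb at chr12:23529504-24562544 on the minus strand and had 67 and 40 counts, or 1.43 and 1.03 CPM per kb (1.23 ± 0.28). The ranges of SOX6 and SOX5 overlapped and their ratio of 1.31 was within counting error in each library. They stood above 48.1 and 45.5% of coding genes, close to the middle of the coding genes. The length chosen moves these values, since the union of all annotated exons is 20.1 kb for SOX6 and 11.3 kb for SOX5, while the canonical transcripts have 9.30 and 7.08 kb. Per kb of the canonical transcript SOX6 was at 3.49 and SOX5 at 1.97 CPM per kb, SOX6 was 1.71-fold (1.28 to 2.32) and 1.86-fold (1.28 to 2.76) above SOX5, and SOX12 no longer differed from SOX6 (1.15-fold, 0.871 to 1.503, and 1.30-fold, 0.934 to 1.80).

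Among SoxE genes only SOX9, which drives the crest and cartilage programmes, had sense counts. It lies at chr17:72121020-72126416 and had 12 and 4 counts, or 0.735 and 0.297 CPM per kb (0.516 ± 0.309), below SOX5 in both libraries by 1.94-fold (1.04 to 3.95) and 3.48-fold (1.26 to 13.4). SOX8, at chr16:981770-986979, had no pair on either strand, which allows up to 0.0885 CPM per kb over both libraries. SOX10, the regulator of Schwann cells and melanocytes, lies at chr22:37970686-37987422 on the minus strand and had no sense count, which allows up to 0.0820 CPM per kb.

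The SoxB genes of neural progenitors were at the lower end. SOX2, at chr3:181711925-181714436, had 3 and 1 counts, or 0.287 and 0.116 CPM per kb (0.202 ± 0.121), and it could not be separated from SOX9. SOX3, at chrX:140502985-140505069, had none on either strand, which allows up to 0.190 CPM per kb. In descending order the levels were SOX4, SOX11, SOX12, SOX6, SOX5, SOX9 and SOX2, and neighbours differed in both libraries except SOX6 from SOX5 and SOX9 from SOX2. Without division by length, SOX6 (32.5 CPM) stood above SOX12 (19.8 CPM).

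**Figure D2:**
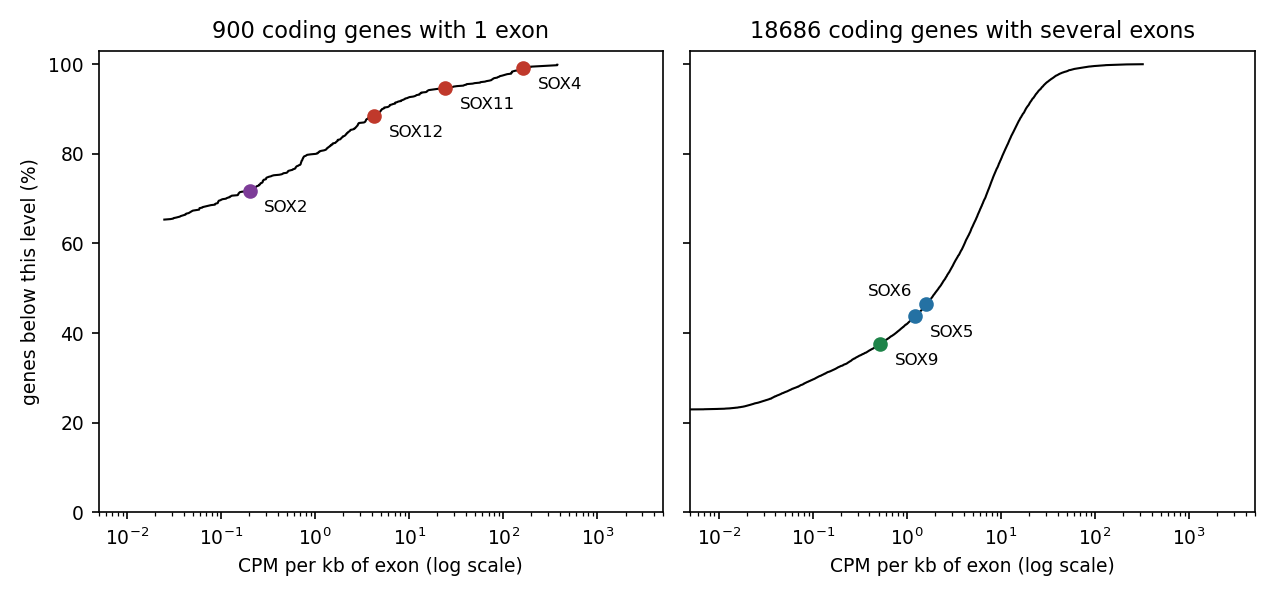
Share of protein-coding genes (%) below a given level in CPM per kb of exon (log scale), for 900 genes with 1 exon (left) and 18686 with several (right), with the SOX genes that had a count as points. SOX4, SOX11 and SOX12 stand above 99.0, 94.7 and 88.3% of genes of 1 exon, and SOX6 and SOX5 above 46.4 and 43.8% of genes of several exons.

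The strand of the read pairs was examined next, because exons of neighbouring genes overlap at some SOX loci. Over all members 97.6% (97.1 to 97.98) and 97.97% (97.4 to 98.4) of the stranded pairs were sense, beside 93.2 and 93.4% over coding genes as a whole. The median per gene was 99.3% over the 11637 coding genes with a mean of at least 10 sense counts, a minimum that leaves out genes with mainly opposite pairs and few sense pairs. SOX4 was 99.9% sense and SOX11 99.0%, with 7 and 2 and with 12 and 4 opposite pairs. SOX5, SOX9 and SOX2 had no opposite pair. A mean of at least 10 opposite counts was found for 3 of 10 members, SOX6, SOX12 and SOX10, compared with 18.6% of coding genes.

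SOX6 had 70 and 46 opposite pairs, so that 68.2% (63.2 to 73.0) were sense. Its locus is overlapped on the other strand by C11orf58, which had 642 and 541 sense counts, although their annotated exons do not overlap in GENCODE v44. The part of C11orf58 in the opposite pairs was not tested. SOX12 had 19 and 11 opposite pairs (83.4% sense, 77.2 to 88.5). It lies inside NRSN2-AS1, an antisense transcript with 9 and 8 counts on its own strand, although their annotated exons do not overlap. The part of NRSN2-AS1 in these pairs was not tested. SOX10 had 13 and 7 opposite pairs and 0 sense (upper limit 16.8% sense), and was 1 of 6 members with a mean of at least 10 on either strand in which the opposite strand was higher, against 10.3% of such coding genes. Its exons overlap by 260 bases those of POLR2F on the other strand, which had only 1 and 0 counts of its own. SOX10 had 0 pairs in the unstranded column, in which pairs over exons of more than 1 gene are counted for none. The source of the opposite pairs of SOX10 was not tested.

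**Figure D3:**
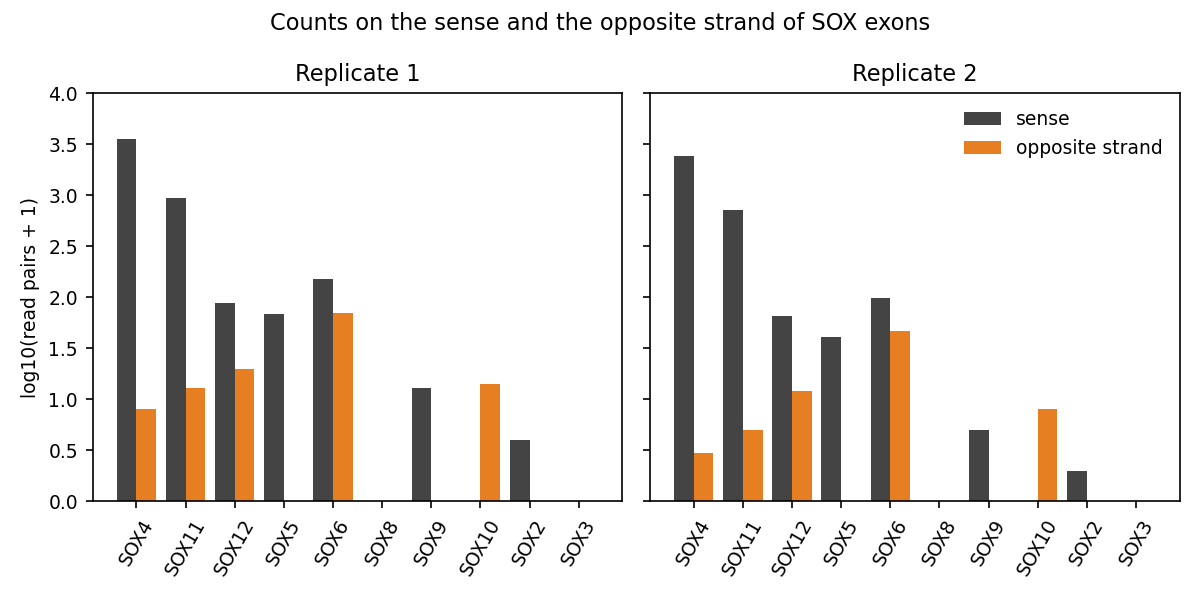
Sense (dark) and opposite-strand (orange) read pairs in exons of the 10 SOX genes as log10(pairs + 1), in replicate 1 (left) and replicate 2 (right). Sense pairs exceed opposite pairs for the 7 genes with a sense count, and SOX10 has opposite pairs only.

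Of 42 annotated genes that overlap a member or start within 50 kb, 35 had a row and 8 had a mean of at least 10. Next to SOX4 the pseudogene BOLA2P3 (3509 bases past its end, same strand) had 38 and 30 counts, which are uncertain because near-identical BOLA2 copies may share them. The lncRNA ENSG00000242540, which starts within SOX11 on the same strand and runs past its end, had 17 and 19 and overlaps its exon by 74 bases. Around SOX12 the genes C20orf96, TRIB3, NRSN2 and ZCCHC3 had 100 and 76, 63 and 32, 33 and 32, and 30 and 14 counts. LMF1, a lipase maturation factor gene that starts 452 bases from SOX8 on the other strand, had 35 and 18, while SOX8 itself had none. The remaining gene past this mean was C11orf58 at SOX6.

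The long non-coding RNA CASC15 starts 65.6 kb past SOX4 on the same strand and was the highest of the 7 SOX-associated lncRNAs examined. It had 2076 and 1775 counts, or 13.7 and 14.2 CPM per kb (13.9 ± 0.36). How it compares with SOX4 depends on the length used, since the exons annotated for CASC15 add up to 36.6 kb and its canonical transcript has 1.35 kb. SOX4 was 13.1-fold and 10.4-fold above CASC15 per kb of all exons and 1.74-fold and 1.38-fold above it in CPM, whereas per kb of the canonical transcripts CASC15 was 2.07-fold and 2.61-fold above SOX4. NBAT1, transcribed against CASC15 from within it and known as a neuroblastoma-associated transcript, had 47 and 20 counts on its own strand, and 295 and 290 pairs in its exons ran in the direction of CASC15. SOX9-AS1 had 8 and 8 and SOX2-OT 8 and 4 counts. SOX5-AS1 had 0 sense and 8 and 18 opposite pairs, and SOX1-OT and SOX21-AS1 had 0. Of the 9 other SOX genes examined, SOX13, the remaining SoxD gene, alone reached a mean of 10, with 99 and 63 counts and 2.85 ± 0.52 CPM per kb. Of the remaining 8, 3 had between 0 and 8 counts in a library and 5 had none, SOX1 among them.

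For the 6 members with an entry in the RefSeq promoter table (GRCh38.p14), SOX4, SOX12, SOX5, SOX6, SOX2 and SOX3, the 300 bases around the start were read. The windows of SOX4, the highest member, and SOX3, which had no count, are shown with CG dinucleotides in capitals, 5′ to 3′ on the strand of the gene, at chr6:21593501-21593800 (+) and chrX:140505020-140505319 (-).
SOX4: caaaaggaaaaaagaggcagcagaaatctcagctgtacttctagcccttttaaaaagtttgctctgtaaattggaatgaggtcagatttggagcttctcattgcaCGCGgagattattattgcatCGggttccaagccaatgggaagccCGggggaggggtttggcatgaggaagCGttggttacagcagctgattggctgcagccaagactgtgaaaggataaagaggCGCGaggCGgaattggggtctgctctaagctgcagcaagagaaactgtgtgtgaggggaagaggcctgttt
SOX3: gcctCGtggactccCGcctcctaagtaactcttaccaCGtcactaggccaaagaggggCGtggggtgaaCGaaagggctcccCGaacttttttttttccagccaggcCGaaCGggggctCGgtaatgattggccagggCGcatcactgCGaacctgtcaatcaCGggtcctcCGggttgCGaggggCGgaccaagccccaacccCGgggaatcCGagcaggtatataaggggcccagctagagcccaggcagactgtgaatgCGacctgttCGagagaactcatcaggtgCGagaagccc
The SOX4 window held 8 CG dinucleotides and 49.3% G and C, the SOX3 window 20 and 60.3%, and the SOX12 window 54 and 80.3%, while the median over 35116 windows was 14 CG and 58.7%. SOX3, without a count, and SOX2, with 3 and 1, had the same number of CG dinucleotides, 20, and more than SOX4. Motifs were searched on both strands in the 10 windows of these members, of which SOX6 has several. CCAAT was in 7 of 10 windows (5 of 6 members) and in 34.6% of all windows, and GGGCGG in 5 of 10 (5 of 6) and 45.0%. TATAAA was in 3 of 10 (1 of 6) and 11.5%, AACAAT in 4 of 10 (2 of 6) and 10.1%, and CATCTG in 2 of 10 (1 of 6) and 14.7%.

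Marker genes were set beside the members to see what the libraries held. Of 10 adrenergic neuroblast genes 9 reached a mean of 10, with a median level of 69.3 CPM per kb, beside 1.91 over all coding genes. HAND2 stood at 230.7 ± 42.4, ISL1 at 182.4 ± 5.83 and PHOX2A at 85.5 ± 17.0 CPM per kb, all transcription factors of sympathetic neurons, whereas TH, the first enzyme of catecholamine synthesis, was listed at 0. SOX4 was at 0.684 and 0.733 times the level of HAND2 and at 1.00 and 0.789 times that of ISL1, within the range of the lineage factors. The defining markers of the adrenergic type were thus present except TH.

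Schwann cell and glial genes, with which SOX10 is usually expressed, were near 0 except PMP22. A mean of 10, which 59.4% of coding genes reached, was found for 1 of 9, the myelin gene PMP22 at 1.14 CPM per kb. The median was 0.0220, and S100B, CDH19 and FABP7 had no count. PMP22 had 10.8 and 12.9 CPM, and its annotated exons add up to 10.4 kb while its canonical transcript has 1.83 kb. Its level per kb therefore depends on the length used. The summed level of the list was 1.90 and 2.09 CPM per kb. Of 5 melanocyte genes 1 reached a mean of 10, MITF at 2.16, and TYR and MLANA had none. Of 5 chondrocyte genes none did, and 4 had no count. Mesenchymal genes were higher, 6 of 8 with a median of 9.53, led by TWIST1 at 288.8 ± 7.95, VIM at 38.0 and FN1 at 21.7. In bulk RNA, fewer cells of a type and less RNA per cell cannot be told apart.

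**Figure D4:**
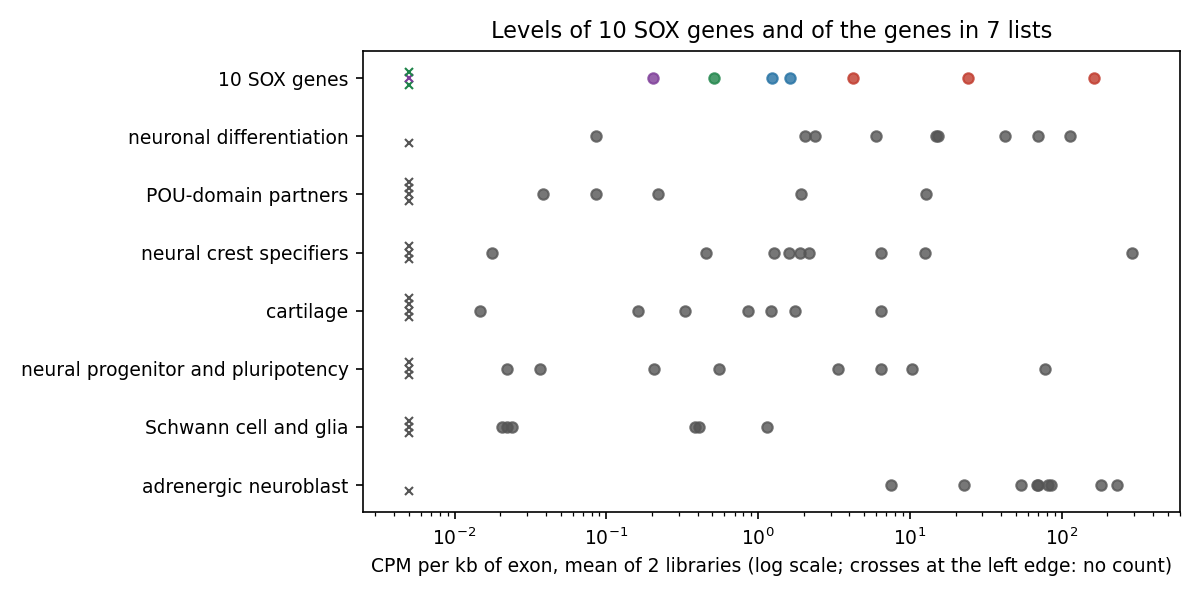
Mean level over both libraries in CPM per kb of exon (log scale) of the 10 SOX genes, coloured by group as in the plot of their levels, and of the genes of 7 lists. Crosses at the left edge mark genes without a count. SOX4 lies among the highest adrenergic neuroblast genes, and Schwann cell and glial genes lie at or below 1.14.

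Genes linked to the SOX groups as targets, as partners or by cell lineage were counted in the same way. Of 10 neuronal differentiation genes downstream of SoxC, 8 reached a mean of 10 with a median of 10.4 CPM per kb. The microtubule regulator STMN2 was at 114.2 ± 6.38, MARCKSL1 at 70.0 ± 18.1 and the dendritic protein gene MAP2 at 42.1 ± 0.63, and INSM1 was listed at 0. Of 11 cartilage genes of the SOX5, SOX6 and SOX9 trio 5 did, with a median of 0.162. The collagen genes COL11A1 and COL9A2 were at 6.46 and 1.75 and MATN3 at 1.22, whereas COL2A1, ACAN and COMP were among 4 with no count.

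Among 12 neural crest specifiers 7 reached the mean, a share near the 59.4% of all coding genes, with a median of 1.43. TWIST1 was highest, followed by SNAI1 at 12.6 and ETS1 at 6.43, and FOXD3, PAX3 and PAX7 had no count. Of 11 progenitor and pluripotency genes linked to SoxB, 5 did, with a median of 0.205. NES, an intermediate filament gene of progenitors, was at 78.3 ± 4.19, LIN28B, a repressor of let-7 maturation, at 10.4 and HES1, a Notch target, at 6.47, while PAX6, HES5 and FABP7 had none on the sense strand. Of 9 POU-domain genes, partners of SOX proteins on DNA, 2 did, with POU2F1 at 12.9 ± 0.09, POU6F1 at 1.93 and POU3F2 at 0.218, and POU3F1, POU3F3 and POU3F4 were among 4 with none. The shares of the SoxC list (8 of 10), of the adrenergic list (9 of 10) and that of the mesenchymal list (6 of 8) were above the 59.4% of all coding genes and those of the glial, melanocyte, chondrocyte, cartilage, SoxB and POU lists below it, which is a description of lists whose members were chosen with earlier results known.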

How the data were processed

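Chromatin RNA of SH-SY5Y cells was sequenced from both ends in 2 replicates with a directional kit carrying molecular identifiers. The authors filtered out reads of spike-ins and rRNA with Bowtie, mapped with STAR to hg38, removed duplicates with UMI-tools, mapped again and deposited raw counts of read pairs per gene. The tool versions and the annotation they counted on are not stated in the labels or methods. Column 4 was taken as sense because its total exceeded that of column 3 in both libraries, and column 3 as opposite. Rows that name no gene (pairs unmapped, mapped to several places, in no exon or ambiguous) were left out of the totals, and of the uniquely mapped pairs 18.5 and 17.5% were in genes, 79.4 and 80.7% in no exon and 2.09 and 1.79% ambiguous.

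Identifiers were matched without version to GENCODE v44 (56558 of 60554 genes, all 10 members, with 0.394% of counts unmatched). Counts were scaled per 1000000 sense counts in genes and per kb of the union of exons. With 1 condition no test was made and no count model fitted. Values are given per library, as mean and SD (n = 2), with Clopper-Pearson 95% intervals, and neighbours in the order were said to differ only if both libraries' ranges were apart and the interval of the ratio left out 1 in each. Group ratios treat the mix of lengths as fixed. Genes without a count are bounded at 3 counts over both libraries. The interval was tested on simulated counts with counting error only, which is the error it assumes. That test cannot show how the interval fares with the spread between these replicates.

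Named were all members, other SOX genes and neighbours within 50 kb with a mean of at least 10, the 7 lncRNAs, and of each list the 3 highest and up to 3 at 0. Members and lists were chosen with earlier results of these data known. Alternatives were the unstranded and opposite columns, no division by length, other lengths, other scalings, minimum means of 1 and 100, and each replicate alone. Python 3.11.15, numpy 2.4.6, pandas 2.3.3 and scipy 1.17.1 were used. Some sequences are not reported here.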

Additional observations from a re-analysis of the deposited data

How the results depend on the processing

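No ratio between groups changed direction under any alternative. The SoxC share of the summed level, 98.2%, was 97.8% in the unstranded column, 95.5% without division by length and 96.9% with the longest or the canonical transcript length, and 49.4% in the opposite column, which holds no SOX sense signal; SoxC over SoxD, 6.08 on the log2 scale, was 5.76, 4.48, 5.14, 5.14 and 0.73 in the same order, 3.33 without SOX4 and 5.08 with SOX13 added to SoxD. SoxC over SoxE, 8.67, was 1.25 in the opposite column and 5.92 without SOX4, and SoxC over SoxB, 10.03, was 11.13 without division by length and 7.28 without SOX4. SoxD over SoxE, 2.59, was 0.51 in the opposite column, 4.65 without division by length and 3.53 with either other length, and SoxE over SoxB, 1.35, was 2 without division by length; the opposite column gave no value against SoxB. With 1 replicate at a time the ranges were 97.99 to 98.4% for the SoxC share, 6.01 to 6.15 for SoxC over SoxD, 8.15 to 9.20 over SoxE, 9.50 to 10.55 over SoxB, 2.14 to 3.05 for SoxD over SoxE, 1.35 for SoxE over SoxB, 97.6 to 97.97% for the sense share, and 5 to 6 members with at least 10 counts, SOX9 being the sixth in replicate 1. SOX4 over CASC15, 3.54 on the log2 scale, was 0.63 without division by length and reversed to -1.22 with the canonical length. The count of members was 3 in the opposite column, 3 at a minimum mean of 100 and 7 at a minimum mean of 1. The canonical length, the comparison of SOX4 with CASC15 by other lengths, SOX13 in SoxD and SoxC without SOX4 were added after seeing the data. No paired analysis was possible because the study has 1 condition. Depth leaves SOX9, SOX2 and the members without a count poorly resolved.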
